A study of Mus musculus with 6 samples.

Results

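The genes described here are 10 genes of osteoblasts, osteocytes and matrix mineralization, chosen by name out of the 36711 gene identifiers in the files: Sp7, Alpl, Phospho1, Ibsp, Spp1, Bglap, Bglap2, Dmp1, Phex and Mepe. All 10 were matched by symbol to 1 identifier each, and all 10 were above 0 in all 6 libraries. RNA sequencing had been carried out on total RNA from dissected knee cartilage of C57/Bl6 mice at 3 months of age. The 2 groups were wild-type (WT) mice and miR-455 null mice, in which a CRISPR-Cas9 deletion takes away part of each mature form of microRNA-455, and which had been bred onto that strain. Each group had 3 libraries, each pooled from 2 knees. Whether the pools were separate litters, and how closely null and WT animals were related, is not stated in the labels, so the genotype and any difference in breeding cannot be told apart, and a p-value here reflects variation among pools that may be partly technical.

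Osteoblasts mature in steps, and the genes they use change on the way. Committed precursors switch on the transcription factor Sp7. They then make alkaline phosphatase and bone sialoprotein as matrix begins to mineralize, and at the end osteocalcin. Cells that become buried in the matrix are osteocytes, which secrete proteins that govern mineral and phosphate. Hypertrophic chondrocytes, the last stage of the cartilage cell, also make alkaline phosphatase, bone sialoprotein and osteopontin, so several of these genes are not particular to bone.

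The values deposited are abundances normalised between libraries. They were treated as normalised to transcript length as well, which the labels do not state, and comparisons of level between genes rest on that. Total abundance ran from 917819 to 1135956 per library, and how many reads lie behind a value is unknown. The tissue was a mixture. Adult globin genes made up 26.1% to 26.9% of total abundance in WT and 11.3% to 21.3% in null libraries, and the neutrophil list 8.24% to 9.94% and 7.97% to 19.7%. The labels give the cell type as chondrocyte. Col2a1, the defining collagen of cartilage, was present in all 6 libraries, with means of 19.7 ± 1.71 in WT and 39.9 ± 20.9 in null (SD, n = 3), but Bglap, a gene of mature osteoblasts, stood at a mean of 433 over the 6 libraries. Of total abundance the 10 genes together took 0.0982%, 0.164% and 0.133% in the WT libraries, against 0.164%, 0.111% and 0.121% in the null. In such bulk tissue fewer cells of a type and less RNA per cell cannot be told apart.

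None of the 10 genes differed between the genotypes beyond the spread between libraries. Osteocalcin (Bglap and Bglap2) and the osteocyte genes Phex and Mepe lay lower in null on average, while Alpl, Phospho1, Ibsp, Sp7 and Spp1 lay higher and Dmp1 was level. Some ratios between the genes within a library did not overlap between the genotypes, among them Bglap relative to Ibsp and to Alpl, which were lower in null. These were 10 of 45 pairs, compared after the values had been seen, where 12.0% of all pairs of genes did not overlap. Bglap2 relative to Ibsp did overlap. Each difference is described in turn, and the test was limma on log2(abundance + 0.5), with Benjamini-Hochberg adjustment over 14145 genes whose mean over the 6 libraries was at least 0.5. All 10 genes passed that filter. With that adjustment 0 of the 10 passed, where 0.0283% of all genes tested did. At an unadjusted p under 0.05 there were also 0 of 10, where 5.61% of all genes passed. The groups overlapped for all 10, whereas over all genes 11.4% did not overlap (6.21% with null higher and 5.22% with null lower). Leaving out 1 library, as described for single genes below, makes separation more common. Between 17.9% and 20.5% of all genes then did not overlap, and 38.4% without null 1. On the log2 scale 6 of the 10 were higher in null, close to the 53.8% of all genes, with a median of 0.10 against 0.02 for all genes.

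**Figure D1:**
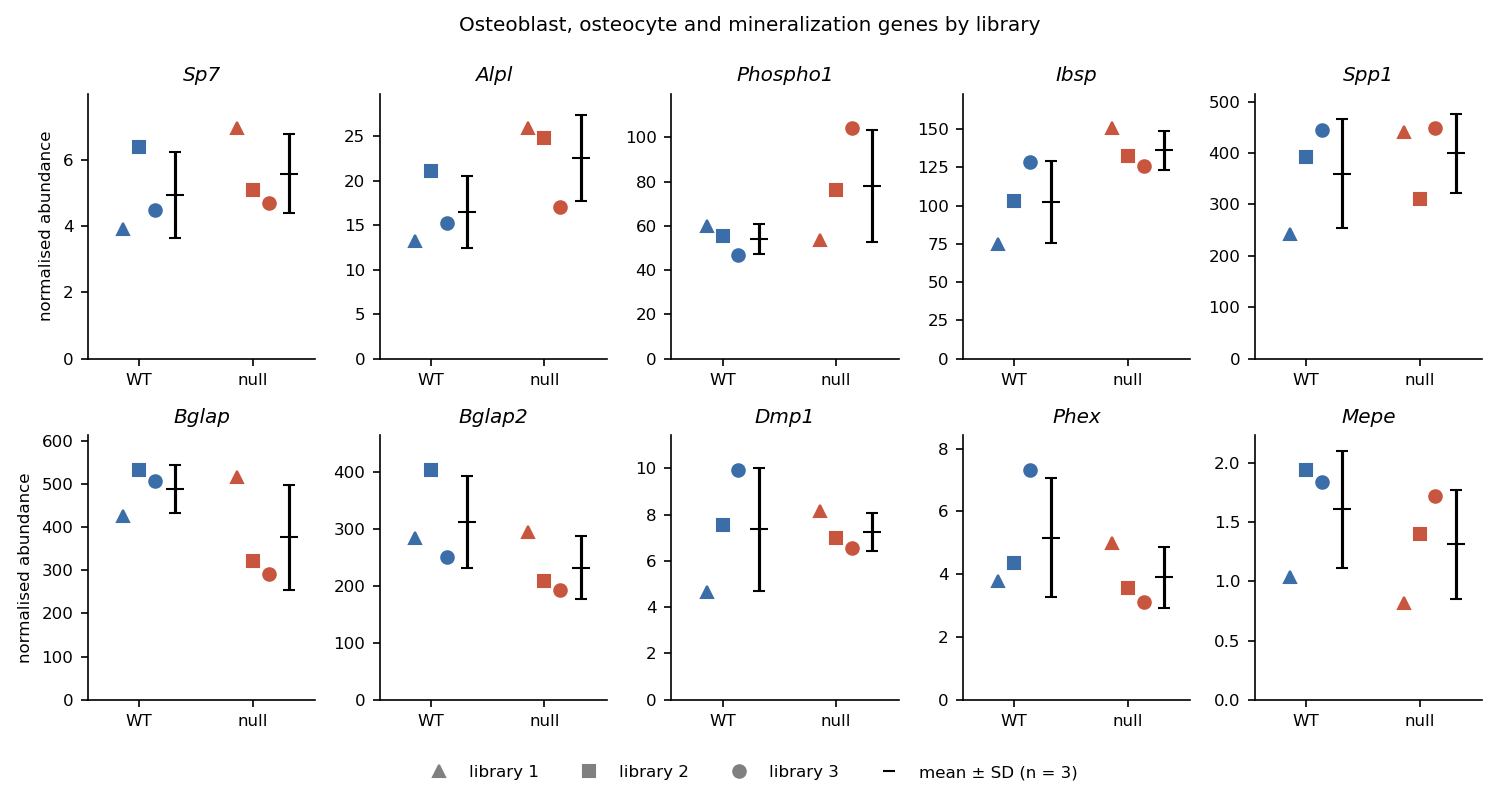
Normalised abundance (vertical axes, each from 0) of the 10 genes in each WT and null library; a marker shape stands for 1 library number within its group, and bars are the mean ± SD. WT and null points overlap in each panel, and Bglap and Bglap2 are lowest in null 2 and null 3.

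The sequences of mature miR-455 are shown first because the mutation removes part of them, with the seed (bases 2 to 8, which pairs with targets) in capitals.
mmu-miR-455-5p: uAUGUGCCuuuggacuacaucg
mmu-miR-455-3p: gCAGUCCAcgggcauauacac
Both come from RefSeq (GRCm38.p6) and lie on the plus strand of chromosome 4, at chr4:63256867-63256888 and chr4:63256904-63256924. The longest annotated 3′UTR of each of the 10 genes (GENCODE, GRCm38) was searched for the reverse complement of either seed, GGCACAT for miR-455-5p and TGGACTG for miR-455-3p. These 3′UTRs ran from 134 bases in Bglap and Bglap2 to 3485 bases in Phex. They held 0 matches to either word. Shorter matches and pairing outside the seed were not searched.

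Sp7, or osterix, is a zinc-finger transcription factor needed for osteoblast formation (chr15:102356606-102367182, minus strand). It measured 3.89, 6.38 and 4.49 across the WT libraries, against 6.94, 5.09 and 4.70 across the null, and values are given in the order of library 1, 2 and 3 throughout. The highest value was in null 1 and the lowest in WT 1, and the groups overlapped. The log2 fold change, null minus WT, was 0.17 ± 0.22 (SE), with a 95% interval from −0.35 to 0.70 (limma adjusted p = 0.854). It was 0.02 without null 1 and 0.03 without WT 1, and 0.36 with no overlap without WT 2 (limma adjusted p = 0.976, adjusted p = 0.986 and adjusted p = 0.943).

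Alpl, tissue-nonspecific alkaline phosphatase, splits pyrophosphate, an inhibitor of mineral, and frees phosphate (chr4:137741733-137796384, minus strand). It measured 13.2, 21.1 and 15.2 across the WT libraries, against 25.9, 24.8 and 16.98 across the null. Null 1 and null 2 lay above all 3 WT libraries and null 3 among them. On the log2 scale, null minus WT, the difference was 0.44 ± 0.23 (SE), with a 95% interval from −0.09 to 0.98 (limma adjusted p = 0.809). Without WT 2 the groups no longer overlapped (0.63 on the log2 scale), and likewise without null 3 (0.63), and neither passed adjustment (limma adjusted p = 0.943 and adjusted p = 0.966). It was lowest, at 0.30, without WT 1.

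Phospho1 encodes a phosphatase that frees phosphate from phosphocholine inside matrix vesicles, the membrane bodies in which the first mineral forms (chr11:95824499-95832140, plus strand). It measured 60.0, 55.3 and 46.7 across the WT libraries, against 53.6, 76.1 and 104 across the null. Null 3 stood highest and null 1 within the WT range. Its log2 fold change of 0.48 ± 0.24 (SE) was the largest of the 10, with a 95% interval from −0.09 to 1.05 (limma adjusted p = 0.809). It was 0.25 without null 3, and 0.72 with no overlap without null 1 (limma adjusted p = 0.991 and adjusted p = 0.200). Among the null libraries the summed neutrophil markers followed the same order as Phospho1, at 73173, 117379 and 194226 in null 1 to 3. The osteoclast sum did too, at 464, 582 and 915. Its largest part was Mmp9 (229, 367 and 626). Acp5 (149, 141 and 153) and Ctsk (78.6, 64.7 and 123) did not follow, and the less abundant markers were mixed. Phospho1 fell from WT 1 to WT 3, and neither sum followed that order. Neutrophil markers were 112921, 76979 and 92790 there, and osteoclast markers 528, 520 and 585. The part of these cells in the Phospho1 values was not tested. The gene overlaps Zfp652 on the same strand and Abi3 on the opposite strand in the annotation, which had mean abundances of 9.41 and 7.27.

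Ibsp, bone sialoprotein, is an acidic matrix protein that binds hydroxyapatite and cells. It measured 75.1, 103 and 128 across the WT libraries, against 150, 133 and 126 across the null. WT 1 was lowest, and the null libraries lay close together, with WT 3 between null 3 and null 2. Null minus WT was, on the log2 scale, 0.44 ± 0.20 (SE), with a 95% interval from −0.04 to 0.92, and its p was the smallest of the 10 (limma adjusted p = 0.809). It was 0.24 without WT 1, and 0.62 with no overlap without WT 3 (limma adjusted p = 0.928 and adjusted p = 0.935). The groups also separated without null 3 (0.50 on the log2 scale) and when libraries were scaled to totals that left out marrow and muscle markers (0.46).

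Spp1, osteopontin, is a phosphoprotein of bone matrix that limits crystal growth and is also made by osteoclasts, macrophages and hypertrophic chondrocytes. It measured 242, 392 and 446 across the WT libraries, against 440, 310 and 448 across the null. WT 1 was again the lowest library, and the other 5 libraries, of both genotypes, lay between 310 and 448. The log2 fold change was 0.18 ± 0.26 (SE), with a 95% interval from −0.44 to 0.80 (limma adjusted p = 0.871), and it was −0.09 without WT 1. WT 1 also had the lowest sum of hypertrophic chondrocyte markers, at 33.7 against 64.6 to 89.3 in the other libraries. Most of that sum was Mmp13 (27.9 in WT 1). Col10a1, also in the list, did not follow Spp1. It was 5.64 in WT 1, 5.71 in null 1, where Spp1 was 440, and highest in null 2 (20.3), where Spp1 was 310. The part of such cells in the Spp1 values was not tested.

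Ibsp, Spp1, Dmp1 and Mepe belong to the SIBLING family of acidic, integrin-binding secreted proteins and sit side by side on chromosome 5, in 238.4 kb at chr5:104202613-104441050 with no other protein-coding gene annotated between them. Mean abundances over the 6 libraries ran from 380 (Spp1) and 119 (Ibsp) to 7.31 (Dmp1) and 1.46 (Mepe), and Dspp, the next family member upstream, which is a gene of dentine, was at 0.0230 or less in each library. The nearest genes outside the family were Sparcl1, a matricellular protein, and Pkd2, a cation channel. Sparcl1 measured 6.14, 8.08 and 5.61 across the WT libraries, against 18.3, 8.56 and 9.94 across the null (log2 fold change 0.79 ± 0.29, SE, limma adjusted p = 0.809). Pkd2 measured 2.67, 2.89 and 2.94 across the WT libraries, against 5.55, 3.34 and 3.41 across the null (0.43 ± 0.21, adjusted p = 0.809). Both were highest in null 1, a library in which the muscle and the tendon and fibroblast markers were also highest. The SIBLING genes did not share one direction, as Ibsp was 0.44 higher and Mepe 0.22 lower on the log2 scale, neither beyond the spread.

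Bglap and Bglap2 both encode osteocalcin, the small protein that the mature osteoblast secretes and whose vitamin K-dependent residues bind calcium. They lie next to each other on the minus strand of chromosome 3, at chr3:88383501-88384464 and chr3:88377736-88378699. Their annotated transcripts matched at 434 of 440 aligned bases (98.6%), and 80.5% of the words of 31 bases in the Bglap transcript also occur in that of Bglap2. The stretch of 30 coding bases with the most differences is shown to make clear how little sequence separates them, with the 3 differing bases in capitals.
Bglap: tgaggaccAtctTtctgctcactctgctgA
Bglap2: tgaggaccCtctCtctgctcactctgctgG
The differences are A28C, T32C and A49G, counted from the first base of the annotated Bglap transcript, with the Bglap base first. Reads from the shared parts can be assigned to either gene, so the split between them is uncertain, and their sum is the firmer value.

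Bglap measured 427, 534 and 507 across the WT libraries, against 517, 321 and 291 across the null. Null 1 lay within the WT range, and null 2 and null 3 below all WT libraries. On the log2 scale, null minus WT, the difference was −0.42 ± 0.23 (SE), with a 95% interval from −0.97 to 0.13 (limma adjusted p = 0.809). Bglap2 measured 284, 404 and 250 across the WT libraries, against 295, 207 and 192 across the null, with the same libraries low, and gave −0.43 ± 0.23 (limma adjusted p = 0.809). The sum of the 2 genes measured 711, 937 and 756 across the WT libraries, against 811, 529 and 483 across the null (mean abundance 802 ± 120 and 608 ± 178, SD, n = 3). As a single feature it gave −0.43 ± 0.22 (SE), with a 95% interval from −0.96 to 0.10 (limma adjusted p = 0.810). Without null 1 the groups no longer overlapped for either gene, at −0.67 for Bglap and −0.62 for Bglap2 on the log2 scale, and neither passed adjustment (limma adjusted p = 0.185 and adjusted p = 0.250). The difference was smaller without null 3 (−0.26 for Bglap and −0.31 for Bglap2), and for Bglap2 it was −0.23 without WT 2. The third gene of the locus, Bglap3, which is expressed mainly outside bone, was between 1.72 and 2.80 in all 6 libraries.

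Dmp1, dentin matrix protein 1, is a phosphoprotein of osteocytes whose loss in mice leads to phosphate wasting. It measured 4.64, 7.53 and 9.94 across the WT libraries, against 8.16, 6.99 and 6.57 across the null. The WT libraries enclosed all the null libraries. Null minus WT was, on the log2 scale, 0.03 ± 0.26 (SE), with a 95% interval from −0.59 to 0.65 (limma adjusted p = 0.980), while the ratio of means was 0.982, so the sign depended on the scale.

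Phex is a membrane endopeptidase of osteoblasts and osteocytes, and its loss causes X-linked hypophosphatemia (chrX:157162075-157415312, minus strand). It measured 3.80, 4.36 and 7.33 across the WT libraries, against 5.01, 3.56 and 3.13 across the null. WT 3 was the highest, and null 2 and null 3 were the lowest of the 6. The log2 fold change was −0.34 ± 0.27 (SE), with a 95% interval from −0.98 to 0.30 (limma adjusted p = 0.809). It was −0.08 without WT 3, and −0.51 with no overlap without null 1 (limma adjusted p = 0.961 and adjusted p = 0.380).

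Mepe, matrix extracellular phosphoglycoprotein, comes from osteocytes and is a source of peptides that inhibit mineralization. It measured 1.04, 1.94 and 1.84 across the WT libraries, against 0.813, 1.40 and 1.72 across the null. The lowest library was null 1, the one with the highest Ibsp, Alpl and Sp7. On the log2 scale, null minus WT, the difference was −0.22 ± 0.29 (SE), with a 95% interval from −0.90 to 0.46 (limma adjusted p = 0.855). It was −0.01 without null 1 and −0.10 without WT 2, and −0.43 with no overlap without WT 1 (limma adjusted p = 0.994, adjusted p = 0.973 and adjusted p = 0.928).

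In order of mean abundance over the 6 libraries the genes ran Bglap (433), Spp1 (380), Bglap2 (272), Ibsp (119), Phospho1 (65.9), Alpl (19.5), Dmp1 (7.31), Sp7 (5.25), Phex (4.53) and Mepe (1.46). Library ranges did not overlap between Bglap2 and Ibsp, between Phospho1 and Alpl, between Alpl and Dmp1 or between Phex and Mepe. The ranges of the other neighbours overlapped. Within each library, however, Ibsp lay above Phospho1 (ratio 1.21 to 2.81) and Dmp1 above Sp7 (1.18 to 2.21). The order of Bglap and Spp1 (ratio 0.649 to 1.76), of Bglap2 and Spp1 (0.428 to 1.17) and of Phex and Sp7 (0.665 to 1.63) differed between libraries. Each gene varied from 1.78-fold (Sp7) to 2.39-fold (Mepe) between its lowest and highest library. WT 1 was the lowest library for 5 of the 10 genes (Sp7, Alpl, Ibsp, Spp1 and Dmp1) and null 3 for 3 (Bglap, Bglap2 and Phex).

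**Figure D2:**
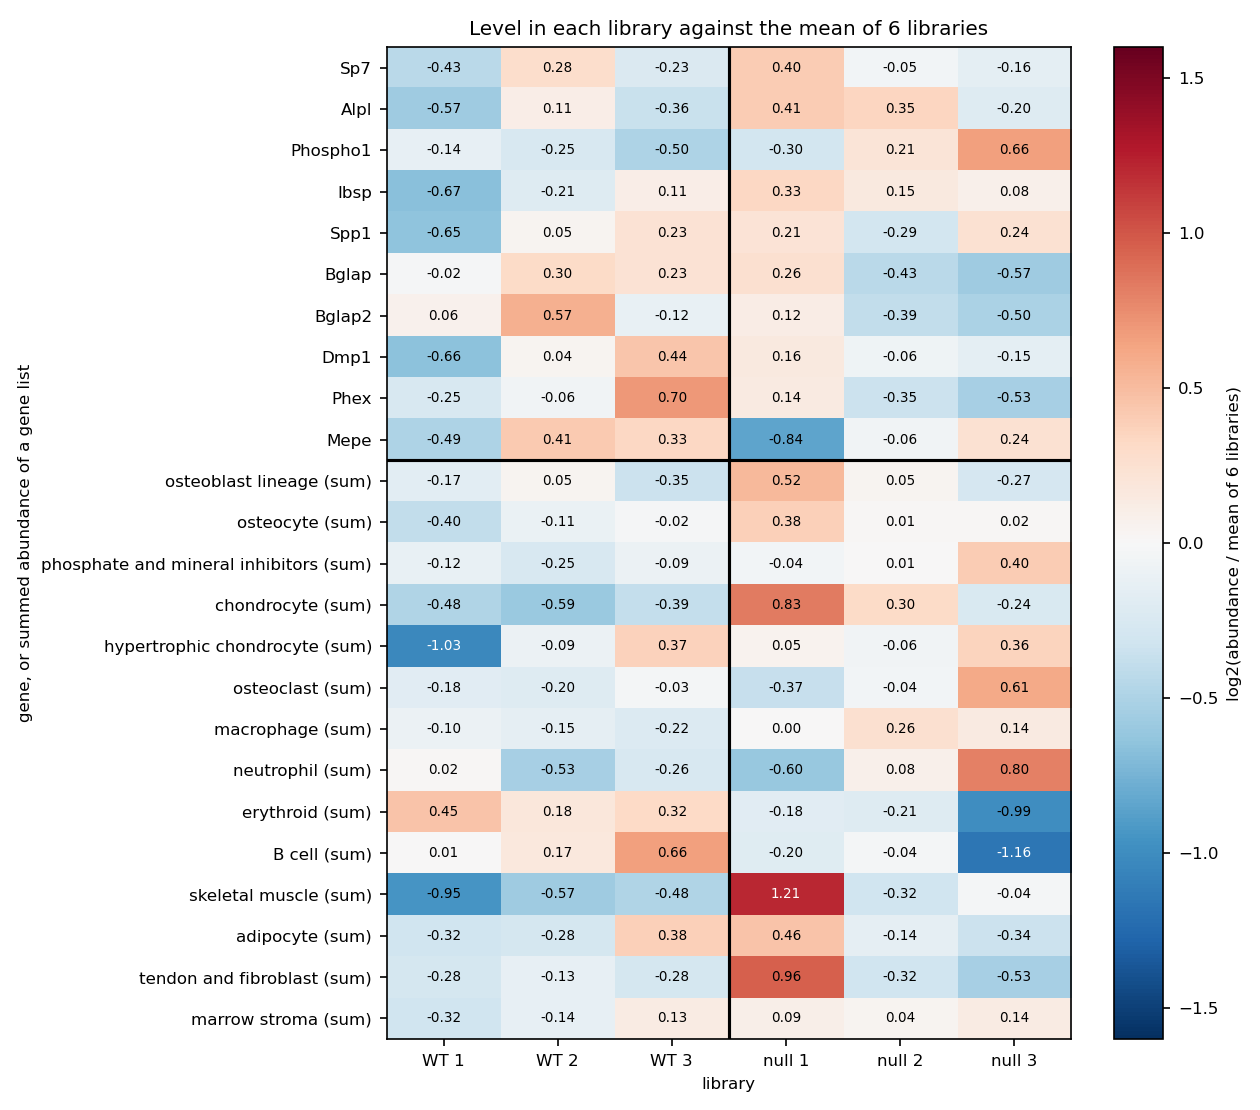
Log2 of the level in each library over the mean of the 6 libraries (colour and printed value), for the 10 genes above the line and for summed marker lists below it. WT 1 is low for Ibsp (−0.67), Spp1 (−0.65) and Dmp1 (−0.66), and null 3 is low for Bglap (−0.57) and for B cell (−1.16) and erythroid (−0.99) markers and high for Phospho1 (0.66) and neutrophil markers (0.80).

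A ratio of 2 genes within a library does not depend on how that library was scaled, so each of the 45 pairs among the 10 genes was also compared in that way. This comparison was chosen after the values had been seen, and it is given as a description with no test. In 10 of the 45 pairs (22.2%) the WT and null ratios did not overlap, where 12.0% of all pairs of genes did not. That share, wherever it is given, covers pairs among the 13705 genes that passed the filter and were above 0 in every library. Pairs that share a gene are not independent. Of the 10 pairs, 4 held Ibsp and 4 held Alpl, 3 held Sp7 and 3 held Bglap. Among them was Sp7 relative to Alpl, a pair with no gene of mature osteoblasts or osteocytes, which was also lower in null. Its smallest WT ratio was 0.296 (WT 1), and its largest null ratio was 0.277 (null 3).

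Bglap relative to Ibsp measured 5.69, 5.17 and 3.95 across the WT libraries, against 3.44, 2.42 and 2.31 across the null (mean ratio 4.94 ± 0.894 and 2.73 ± 0.618, SD, n = 3). Each null library thus carried less Bglap mRNA per bone sialoprotein mRNA than any WT library. This rests on the uncertain split between Bglap and Bglap2, and Bglap2 relative to Ibsp overlapped. Bglap2 relative to Alpl measured 21.6, 19.2 and 16.4 across the WT libraries, against 11.4, 8.37 and 11.3 across the null. Bglap relative to Alpl measured 32.4, 25.3 and 33.4 across the WT libraries, against 19.98, 12.97 and 17.13 across the null. Null 1 lay within the WT range in its osteocalcin level and below all WT libraries in these ratios, with the highest Ibsp and Alpl of the 6 libraries.

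Dmp1, Phex and Mepe were also lower in null relative to bone sialoprotein. Whether this extends to other osteocyte genes was not tested. Of 5 others, described below, 4 were themselves higher in null, and their ratios to Ibsp are not given. Log2 fold changes lay above that of Ibsp (0.44) for Fam20c (0.52) and Pdpn (0.48), and below it for the rest, among them Gja1 (0.28). Dmp1 relative to Ibsp measured 0.0618, 0.0730 and 0.0774 across the WT libraries, against 0.0542, 0.0528 and 0.0523 across the null, although Dmp1 itself was level between the genotypes. Phex relative to Ibsp measured 0.0506, 0.0422 and 0.0571 across the WT libraries, against 0.0333, 0.0268 and 0.0249 across the null. The ratio of Mepe to Ibsp separated only narrowly, with a lowest WT value of 0.0138 and a highest null value of 0.0137. With the genes grouped after their values were seen, all 15 ratios of a gene of mature osteoblasts or osteocytes (Bglap, Bglap2, Dmp1, Phex, Mepe) to Sp7, Alpl or Ibsp had a lower mean in null, and 9 of the 15 did not overlap, where 12.0% of all pairs of genes did not. These 15 ratios share 3 denominators and are not independent. In null the numerators lay lower or level and the denominators higher, so the lower means followed largely from the grouping. The share over all pairs, which were not so chosen, is therefore no measure of an excess. The ratio of Bglap2 to Ibsp was among those that overlapped, by WT 3 (1.94) and null 1 (1.96). No pair with Spp1 or Phospho1 separated the groups. The ratio of Bglap to Bglap2, which rests on how shared reads were assigned, overlapped as well (1.32 to 2.03 in WT and 1.52 to 1.75 in null).

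**Figure D3:**
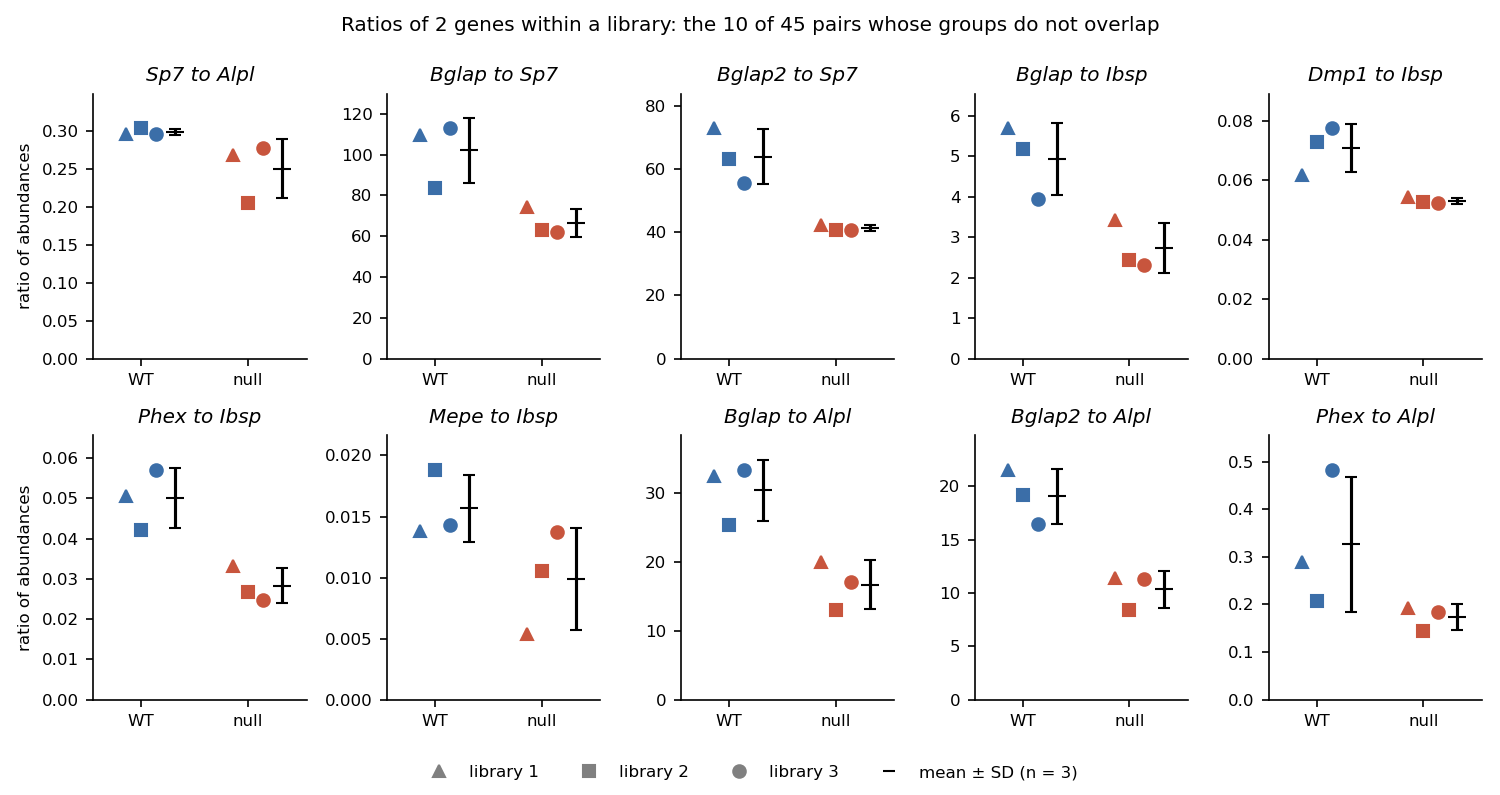
Ratio of the abundances of 2 genes within each library (vertical axes, each from 0) for the 10 pairs whose WT and null values do not overlap; markers are libraries and bars the mean ± SD. Bglap to Ibsp lies between 3.95 and 5.69 in WT and between 2.31 and 3.44 in null.

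Summed levels of markers of other cells also lay apart in several lists, none of whose genes passed adjustment. The 9 chondrocyte markers summed to between 262 and 302 in WT and between 335 and 700 in null, with 8 of 9 higher on average and none at 0. Skeletal muscle markers summed to between 40.6 and 55.9 in WT and between 62.7 and 181 in null (8 of 8 higher), and macrophage markers to between 316 and 343 and between 367 and 438 (7 of 7 higher). Erythroid markers summed to between 253483 and 305860 in WT and between 112535 and 197223 in null (0 of 7 higher), and B cell markers to between 324 and 507 and between 144 and 314 (0 of 7 higher). Sums overlapped for hypertrophic chondrocytes (33.7 to 89.3 and 66.1 to 88.4), osteoclasts (520 to 585 and 464 to 915), neutrophils (76979 to 112921 and 73173 to 194226), adipocytes (142 to 230 and 140 to 244), tendon and fibroblasts (113 to 125 and 94.9 to 266) and marrow stroma (326 to 443 and 419 to 447). Among all these markers the osteoclast receptor Calcr was the only one at 0 in any library. The part of any of these cells in the values of the 10 genes was not tested.

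Most of the wider set of bone genes had a higher level in null, unlike osteocalcin, and none passed the test. Of 16 further osteoblast lineage genes 15 passed the filter, and 13 of these were higher in null, with a median log2 fold change of 0.24 against 0.02 for all genes. None passed limma with adjustment (smallest adjusted p = 0.809), and 0 had an unadjusted p under 0.05. Sparc, osteonectin, a collagen-binding glycoprotein of bone, measured 389, 482 and 374 across the WT libraries, against 667, 547 and 435 across the null (log2 fold change 0.39 ± 0.19, SE). Col1a2, a chain of type I collagen, measured 275, 336 and 237 across the WT libraries, against 463, 284 and 225 across the null (0.14 ± 0.28). Dlx3, a homeobox factor of osteoblasts, measured 1.26, 1.74 and 1.79 across the WT libraries, against 3.51, 2.04 and 1.92 across the null and did not overlap (0.48 ± 0.25). All 3 were highest in null 1, and the list's median fell to 0.09 without that library and to 0.10 without WT 1. A median above 0 was not particular to bone genes. The marker lists of other cells had it too, such as osteoclast (0.26), macrophage (0.32) and neutrophil (0.34) markers. The exceptions were erythroid (−0.64) and B cell (−0.74) markers.

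Of 7 osteocyte genes 5 passed the filter, 4 of them higher in null (median 0.28, 0.11 without null 1 and 0.14 without WT 1), and none passed limma with adjustment or at an unadjusted p under 0.05. Fam20c, the kinase that phosphorylates secreted proteins including the SIBLING family, measured 4.79, 2.91 and 5.20 across the WT libraries, against 5.54, 6.19 and 7.05 across the null. The null libraries all lay above the WT libraries (log2 fold change 0.52 ± 0.22, SE, limma adjusted p = 0.809). Gja1, a gap junction protein, measured 14.9, 20.9 and 19.7 across the WT libraries, against 28.4, 20.0 and 19.6 across the null. Pdpn, a marker of early osteocytes, measured 0.443, 0.359 and 0.611 across the WT libraries, against 1.25, 0.773 and 0.605 across the null, and both were highest in null 1. Sost, the Wnt inhibitor sclerostin, and Fgf23, the phosphate-lowering hormone, were under the filter, at 1.10 or less and 0.083 or less in every library.

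Of 17 genes of phosphate, pyrophosphate and mineral inhibition 15 passed the filter, 12 of them higher in null (median 0.19, 0.29 without null 2 and 0.11 with gene-by-gene library weights), and none passed limma with adjustment or at an unadjusted p under 0.05. Smpd3, a sphingomyelinase required for bone mineralization, measured 1.98, 3.54 and 2.43 across the WT libraries, against 5.11, 3.82 and 3.16 across the null (log2 fold change 0.53 ± 0.24, SE, adjusted p = 0.809). Mgp, matrix Gla protein, an inhibitor of calcification, measured 101, 84.1 and 106 across the WT libraries, against 148, 114 and 108 across the null and did not overlap (0.34 ± 0.16, adjusted p = 0.809). Anxa2, an annexin found in matrix vesicles and in many other cells, measured 287, 247 and 295 across the WT libraries, against 251, 330 and 527 across the null (0.36 ± 0.26, adjusted p = 0.809). Its high library, null 3, was also that of Phospho1. Also without overlap were Vdr and Vkorc1, higher in null, and Ankh, a pyrophosphate transporter, lower in null (log2 fold change −0.23 ± 0.14, SE, adjusted p = 0.809), which are named after their values were seen.

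**Figure D4:**
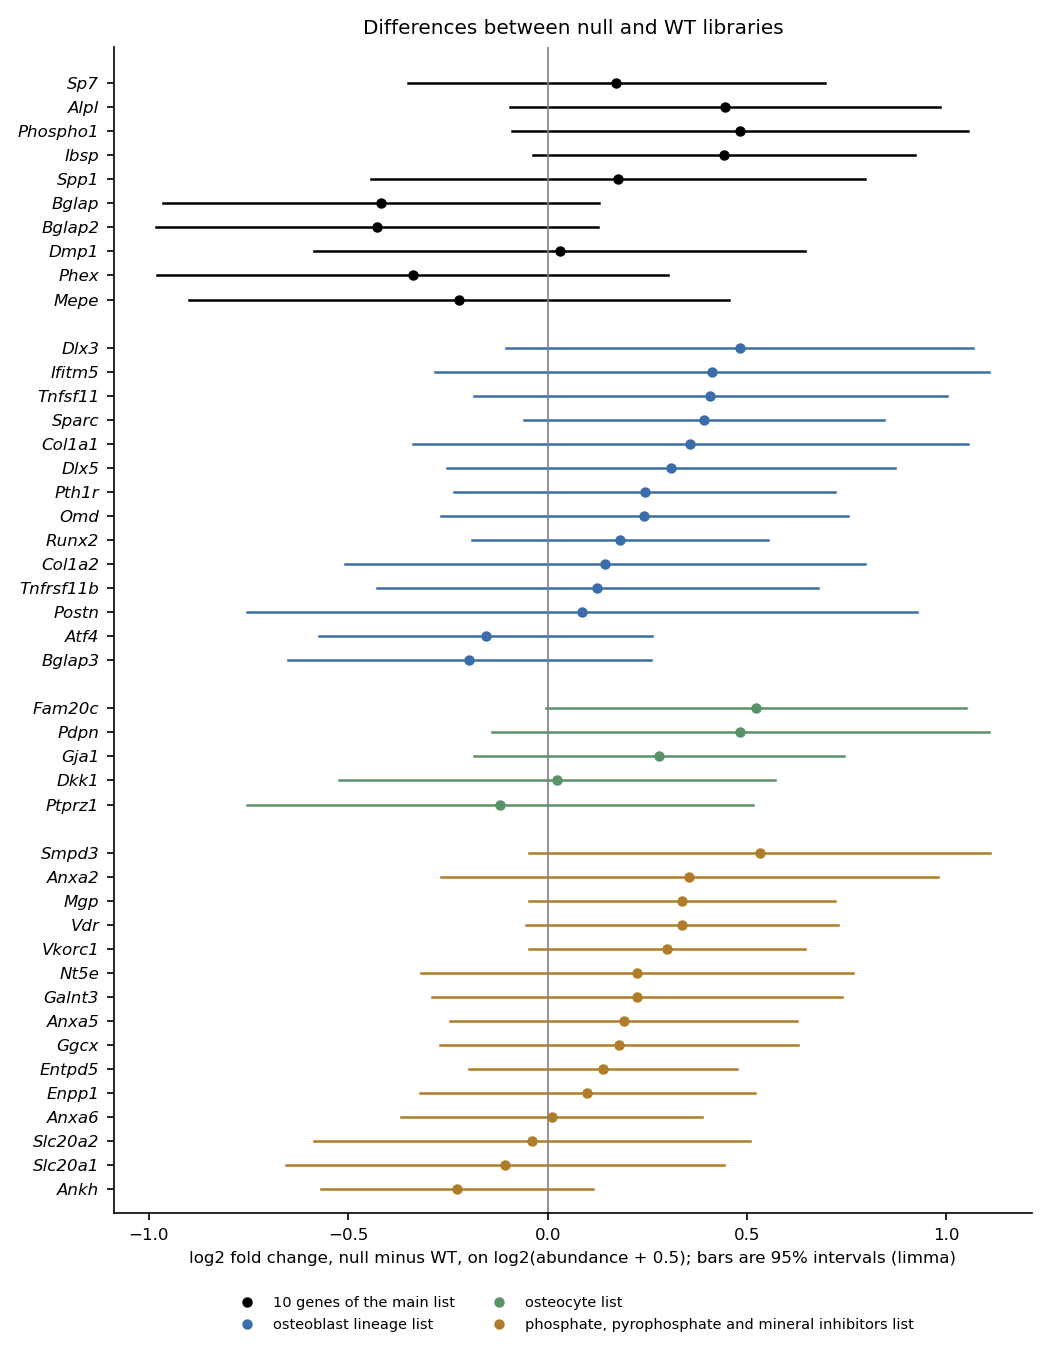
Log2 fold change, null minus WT, of the 10 genes and of genes of 3 wider lists (points), with 95% intervals from limma (lines), on log2(abundance + 0.5). The intervals of all genes shown reach 0, with Bglap at −0.42, Ibsp at 0.44 and Fam20c at 0.52.

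Over the 6 libraries the genes whose pattern was most like the mean pattern of the 10 genes were sought among 12803 other genes with a mean of at least 1. Those with the highest Pearson correlation of log2(abundance + 0.5), given as a description over 6 libraries of 2 genotypes, included Tardbp, Fam171a1, Id4, Phldb1, Angpt4, Stard6 and Cttn, with correlations between 0.977 and 0.996. Tardbp, an RNA-binding protein of most cells, measured 151, 176 and 176 across the WT libraries, against 177, 167 and 166 across the null, lowest in WT 1 like the average of the 10 genes.

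Promoter sequences were examined for the word bound by RUNX factors, ACCACA on either strand (TGTGGT on the other), because Runx2 is the master regulator of osteoblasts and osteocalcin one of its classical targets. RefSeq (GRCm38.p6) gave 11 promoters for 8 of the 10 genes, each from 250 bases before to 50 after the start, and none was taken for Sp7 and Bglap2. The word occurred in promoters of 4 of the 8, namely Bglap, Dmp1, Mepe and Spp1, that is in 4 of 11 promoters (36.4%) where 16.8% of all 32851 promoters held it. The 5 occurrences are shown with up to 12 bases on either side and the word in capitals.
Bglap, 132 bases before the start: ccgcaatcacctACCACAgcatcctttggg
Spp1, 128 bases before the start: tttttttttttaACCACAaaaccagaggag
Dmp1, 164 bases before the start: agtcatttgagaACCACAagagctttttag
Mepe, 118 bases before the start: tagcagctttccACCACAaaacatttttag
Mepe, 80 bases before the start: taccatacccccTGTGGTcatctgtgggca
The occurrences lie at chr3:88384593-88384598 for Bglap, chr5:104434983-104434988 for Spp1, chr5:104202453-104202458 for Dmp1, and chr5:104325211-104325216 and chr5:104325249-104325254 for Mepe. Runx2 itself had a mean of 8.63 ± 1.53 for WT against 9.79 ± 0.951 for null (SD, n = 3). The genes with the word did not share a direction, since Bglap and Mepe lay lower, Spp1 higher and Dmp1 level in null, none beyond the spread.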

How the data were processed

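RNA was sequenced from knee cartilage of 3 WT and 3 miR-455 null libraries. Per the submitters' processing notes, the authors used FastQC, Trim Galore, kallisto and sleuth with mm10; no versions are named there. Each deposited table holds 1 normalised signal per gene, which the authors termed counts; the values were not whole numbers and were treated as length-normalised abundances, so no count model or counting interval was used. Deposited alignment rates were not used. Symbols came from GENCODE M21 (35866 of 36711 identifiers matched); its build, GRCm38, is mm10. No 2 libraries were identical. Genotype was the single term of a trended limma fit (version 3.58.1, R 4.3.3) on log2(abundance + 0.5), which understates changes of low genes, for 14145 genes with a mean of at least 0.5. The procedure was tested on simulated data. The 10 genes and all lists were chosen with earlier results of these data known. Of the wider bone lists, the 2 most abundant genes and the 2 of smallest p were named, together with the nearest protein-coding genes to the chromosome 5 cluster (of these BC005561 was not analysed here); other marker lists are given as sums. Alternatives were other pseudocounts, filters, scalings, variance models, a replicate block, summing Bglap and Bglap2, and leaving out each library. Some genes called over the whole table, or named by the rules above, are not reported here. Figures used matplotlib 3.10.9.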

Additional observations from a re-analysis of the deposited data

How the results depend on the processing

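None of the 10 genes passed adjustment under any alternative run, and of 150 values for them 146 kept their direction. Other filters, the prior without a trend and the replicate block leave the fold change itself unchanged. Only pseudocounts, scalings, library weights, summing and omitted libraries could therefore alter a sign. The sign of Spp1 changed with gene-by-gene library weights (−0.031) and without WT 1 (−0.086), and that of Dmp1 without WT 1 (−0.25) and without null 1 (−0.05), and the cause was not tested. On omitting single libraries Spp1 ranged from −0.086 to 0.35 and Dmp1 from −0.25 to 0.26, and the other 8 genes kept their sign. With those weights 5 of the 10 (Bglap, Phospho1, Alpl, Bglap2 and Ibsp) reached 0.05 without adjustment, as did 2444 of all 14145 genes tested. The smallest limma adjusted p among the 10 was then 0.217. Leaving out null 1 gave 3 (Bglap, Phospho1 and Bglap2), with 2480 of all 14145 genes. Leaving out WT 2 or null 3 gave 1 (Alpl), with 582 and 717 of all genes. Leaving out WT 3 gave 1 (Ibsp), with 624 of all genes, while other settings gave 0. The number of the 10 higher in null was between 4 and 6 on omitting single libraries, and the number whose groups did not overlap was between 0 and 4, with 4 without null 1, a setting in which 38.4% of all genes did not overlap. It was 1 with scaling to totals without marrow and muscle markers, where 8.65% of all genes did not overlap. Over all genes, 4 passed adjustment, 2 with no filter, 1 where 3 or more libraries had to reach 5 (with 9098 genes tested, 8 of the 10 among them), 1 under the replicate block, and from 1 to 12 on omitting single libraries (12 without WT 3 and without null 1). The count at an unadjusted p under 0.05 was 793, 2444 with gene-by-gene weights, 2480 without null 1, 485 without WT 1 and 451 where 3 or more libraries had to reach 5. Deviations of libraries with the same number had correlations of −0.111, 0.043 and −0.025, and pairing was therefore not assumed. Genes called in the 3 wider lists numbered 0 under all alternatives run, and no list median changed sign, although that of the osteocyte genes was 0.05 with no filter. Read depth was unknown, so no counting error can be given for low values such as those of Mepe.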
